A study of Mus musculus with 12 samples.

Results

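The genes examined were Tlr3 and 9 genes that sense double-stranded RNA or pass that signal on: Ticam1, Ifih1, Ddx58, Dhx58, Mavs, Eif2ak2, Adar, Irf3 and Tbk1. They were taken by symbol from a table of 24421 gene symbols, in which all 10 were present. All 10 also passed the filter on low counts, which kept 13534 genes for testing.

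Double-stranded RNA marks viral infection, and it can also be released by dying cells or formed from a cell's own repeat transcripts. The receptor Tlr3 meets it in endosomes and signals through the adaptor Ticam1 (TRIF), whereas the helicases Ifih1 (MDA5) and Ddx58 (RIG-I) meet it in the cytoplasm and signal through the mitochondrial adaptor Mavs. Both routes converge on the kinase Tbk1, which phosphorylates the transcription factor Irf3, and Irf3 switches on type I interferon. Interferon in turn raises several of the sensors, along with the kinase Eif2ak2 (PKR), which stops translation, and the editing enzyme Adar, which unwinds the cell's own duplexes by turning adenosine into inosine. In blood vessels Tlr3 is known as a receptor through which endothelial cells respond to RNA from neighbouring cells, and the tumours studied here are known for work that placed endothelial Tlr3 upstream of the guidance factor Slit2.

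Ribosome-bound mRNA was collected from subcutaneous tumours of B16F10 (n = 7 libraries), described as highly metastatic, and of B16F0 (n = 5), the poorly metastatic counterpart, both mouse melanoma lines. All hosts were C57BL/6 mice with the alleles Rpl22fl/flHA and Cdh5(PAC)-CreERT2, all received tamoxifen, and all tumours grew for 12 days. The endothelial Cdh5 promoter drives the Cre, so the HA tag on the ribosomal protein Rpl22 is switched on in the vessel wall of the host and the injected tumour cells carry no tag. Animal ages are not given. Nothing in the labels ties a library to an animal, and the p-values therefore rest on a spread between libraries that may be partly technical.

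Gene counts summed to between 5322510 and 20569186 per library, and each group was spread over sequencing lanes 1, 2 and 6. Of the B16F0 libraries, lane 2 held replicate 1 alone. Transcripts of both endothelial and pigment cells were present in every library. The summed level of 20 pan-endothelial markers ran from 723 to 4916 CPM (counts after scaling every library to the same total) in B16F10 and from 1019 to 5378 CPM in B16F0. That of 20 melanocytic markers ran from 11871 to 24634 and from 14869 to 25198 CPM, sums over other genes that are not corrected for length, and no marker was at 0 in every library. The endothelial score of a library, the mean log2 CPM of the first list, was highest in B16F0 replicate 3 (7.12), B16F10 replicate 4 (7.002) and B16F10 replicate 5 (6.42), and lay between 4.24 and 5.24 in the other 9 libraries. The ribosomal RNA precursor Rn45s took 31.4% of the counts of B16F10 replicate 5 and 8.91% of those of B16F0 replicate 5. In such bulk precipitates fewer cells of a type and less RNA per cell cannot be told apart.

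Since several of the 10 genes are known to be raised by interferon, the promoters were searched for the interferon-stimulated response element, the site bound by the interferon-activated complex and by Irf factors. RefSeq windows on GRCm38.p6, running from 250 bases before to 50 bases after an annotated start, were held for 9 of the 10 genes (11 windows, with none for Dhx58). Its core, GAAA, any 2 bases and GAAA, sought on both strands, occurred in 3 of the 9 genes, Ifih1, Ddx58 and Eif2ak2, and in 3.993% of all 27025 genes with a window. The shorter core AANNGAAA, which overlaps the first and was chosen after the values were seen, occurred in these 3 and in Tlr3 and Adar, and in 26.668% of all genes with a window. Neither was found in the windows of Ticam1, Mavs, Irf3 or Tbk1. The gamma-interferon element TTCNNNGAA occurred in Eif2ak2 and Adar and in 9.554% of all genes with a window. These are matches of letters and no measurement of binding. The 5 sites are shown 5′ to 3′ on each gene's strand, with the matched letters in capitals, 1 for each gene with a match to either interferon core, to show what the search found. They lie at chr2:62646206-62646235 (Ifih1, minus strand), chr4:40239804-40239833 (Ddx58, minus), chr17:78882535-78882564 (Eif2ak2, minus), chr8:45410420-45410449 (Tlr3, minus) and chr3:89730737-89730766 (Adar, plus).
Ifih1: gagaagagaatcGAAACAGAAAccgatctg
Ddx58: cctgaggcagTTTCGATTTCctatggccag
Eif2ak2: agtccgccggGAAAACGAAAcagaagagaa
Tlr3: agtgaatggcTTTCACTTtgtttagacaca
Adar: cttttcaaggAAACGAAAgtgaactctggg
The Ddx58 and Tlr3 matches shown are on the opposite strand. Ddx58 also has a match to the shorter core on its own strand, beginning at -59, which is not shown. In Ifih1, Ddx58, Eif2ak2 and Adar the match shown begins 33, 3, 19 and 30 bases from the annotated start, in exonic bases that are not coding, and in Tlr3 it begins at -59, outside the annotated exons. The Adar site belongs to the most downstream of its 3 annotated starts.

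None of the 10 genes differed between the tumour lines at a false discovery rate of 0.05 (edgeR quasi-likelihood test with lane in the fit, adjusted over all 13534 tested genes). Of all tested genes 2.77% passed that test, and 2.73% had groups that did not overlap in CPM, which was the case for none of the 10. At an unadjusted p under 0.05 there were 3 of them, beside 14.8% of all tested genes. Irf3 was the 1 on the higher side in B16F10, beside 7.13% of all tested genes, and Eif2ak2 and Tbk1 were the 2 on the lower side, beside 7.71%. The median log2 fold change (B16F10 over B16F0) of the 10 was -0.27, with 7 below 0, against a median of 0.02 and 47.5% below 0 over all tested genes. By DESeq2, which called 407 higher and 445 lower of all tested genes against 176 and 199 by edgeR, 1 of the 10 was lower, Tbk1. By limma-voom none of the 10 passed, with 174 higher and 203 lower of all tested genes.

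**Figure D1:**
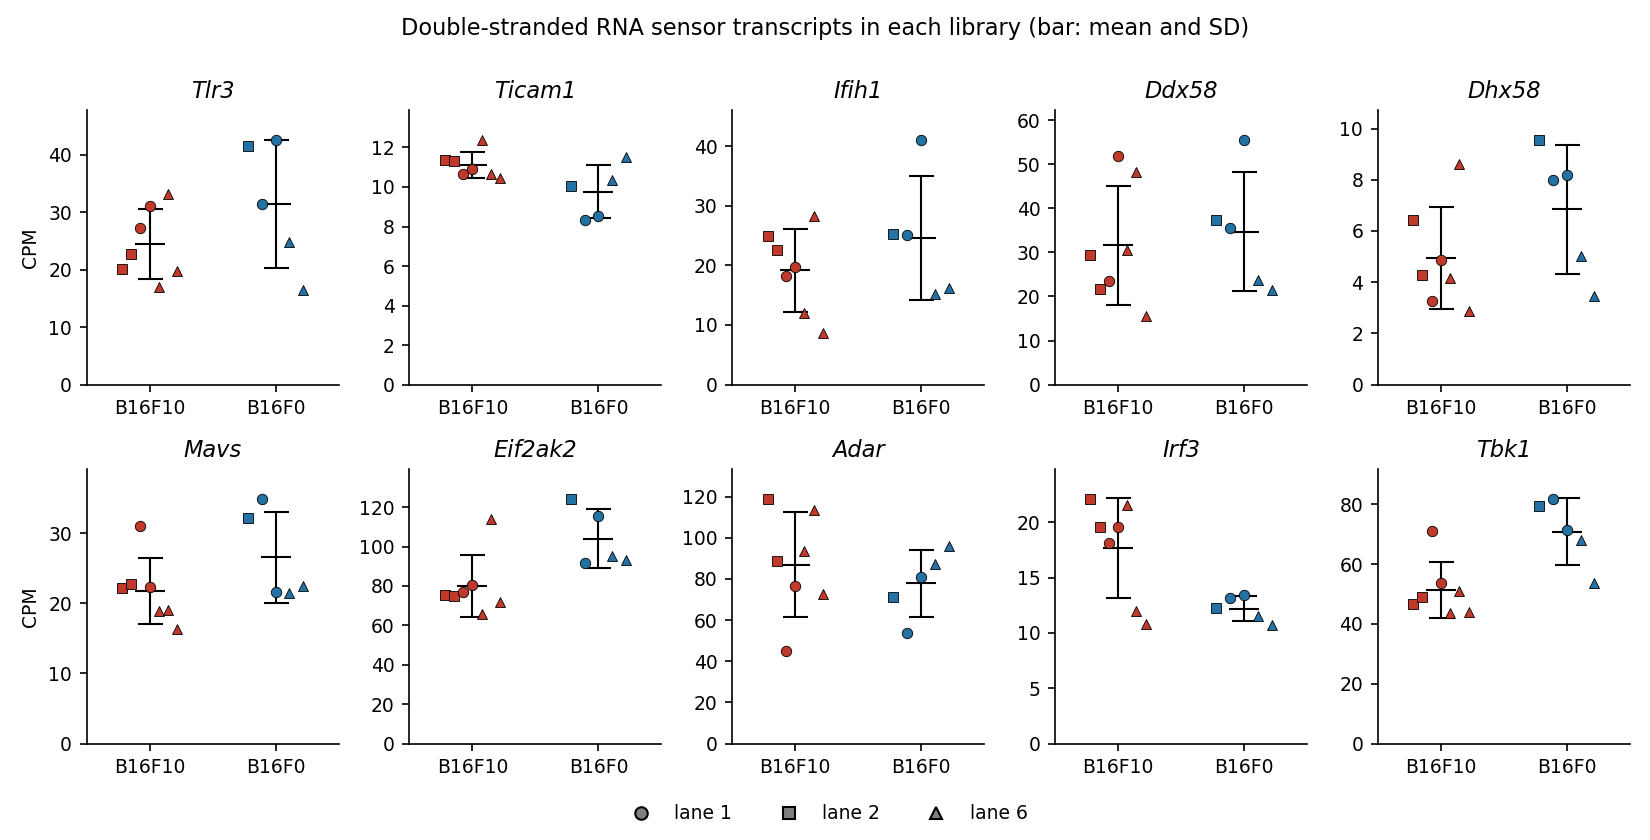
Each point is the level of a gene (CPM over the tested genes after TMM scaling) in a library, in 10 panels with their own axes starting at 0. B16F10 (7 libraries) and B16F0 (5 libraries) are set side by side with the mean and SD, marker shapes stand for lanes 1, 2 and 6, and the groups overlap in every panel.

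Tlr3, the endosomal receptor, is on chromosome 8 from 45395665 to 45411080 on the minus strand (GENCODE M21, GRCm38, as for all gene positions here). Its level in B16F10 had a lowest value of 16.9, a median of 22.8 and a highest value of 33.1 CPM. In B16F0 replicates 1 to 5 it stood at 41.6, 31.5, 42.6, 24.9 and 16.5 CPM. The B16F0 group thus held both the highest and the lowest library of the 12, and the groups overlapped. The group means were 24.4 ± 6.15 CPM for B16F10 (SD, n = 7) and 31.4 ± 11.1 CPM for B16F0 (SD, n = 5). Between the lines Tlr3 had a log2 fold change of -0.29 ± 0.22 (SE; adjusted p = 0.613 by edgeR), and the 95% confidence interval ran from -0.77 to 0.19. Within lanes 1, 2 and 6 the differences of mean log2 CPM were -0.33, -0.95 and 0.14, so the direction was not the same in each lane. Over 29 other settings the fold change stayed below 0, from -0.45 to -0.05, with adjusted p from 0.273 to 0.976, and without the 2 libraries rich in Rn45s it was -0.43 (adjusted p = 0.396 by edgeR). The counts behind these values ran from 126 to 672 per library. Slit2, by contrast, was at 21.5 to 37.9 CPM in B16F10 and 2.36 to 3.84 CPM in B16F0. Its log2 change per unit of the endothelial score, with lane and tumour line in the fit, was 0.04 (edgeR adjusted p = 0.864). Which cells of the mixed precipitates its transcripts came from was not tested.

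The cytoplasmic helicases varied more from library to library than between the lines. Ifih1 (chromosome 2, 62595798 to 62646255, minus strand), which reads long duplexes, had a lowest value of 8.72, a median of 19.7 and a highest value of 28.3 CPM in B16F10. Its B16F0 values were 25.3, 25.0, 41.1, 15.3 and 16.2 CPM, with replicate 3 above all other libraries. For Ifih1 the log2 fold change came to -0.28 ± 0.28 (SE; adjusted p = 0.713 by edgeR), and the lanes gave -0.75, -0.09 and -0.13.

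Ddx58 (chromosome 4, 40203773 to 40239828, minus strand), which reads short duplexes with a 5′ triphosphate, ran from 15.6 through a median of 29.5 to 51.9 CPM in B16F10. In B16F0 it was at 37.4, 35.4, 55.6, 23.7 and 21.5 CPM. High and low libraries were found in both groups, and the means of 31.6 ± 13.6 CPM for B16F10 (SD, n = 7) and 34.7 ± 13.6 CPM for B16F0 (SD, n = 5) differed by less than the SD of either group. That gave a log2 fold change of -0.04 ± 0.30 (SE; adjusted p = 0.973 by edgeR), with an interval from -0.68 to 0.61, and the lanes gave -0.34, -0.56 and 0.33.

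Dhx58 (LGP2; chromosome 11, 100694884 to 100704271, minus strand), a helicase without signalling domains that tunes the other helicases, was the scarcest of the 10, per length as well. It ran from 2.88 through 4.30 to 8.63 CPM in B16F10 and stood at 9.57, 7.98, 8.19, 5.02 and 3.46 CPM in B16F0. The groups overlapped, although the 3 B16F0 libraries of lanes 1 and 2 exceeded every B16F10 library other than replicate 6. In the fit Dhx58 had a log2 fold change of -0.44 ± 0.33 (SE; adjusted p = 0.601 by edgeR), and the lanes gave -0.99, -0.85 and 0.17. Counts of 33 to 175 per library limit its precision, and 141 of its exon bases (4.31%) are shared with the antisense gene Dhx58os.

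The effectors did not share a direction. Eif2ak2 (chromosome 17, 78852564 to 78882573, minus strand) had a lowest value of 65.8, a median of 75.2 and a highest value of 114 CPM in B16F10, where replicate 6 stood far above the other 6. Its B16F0 values were 124, 91.7, 116, 95.2 and 93.4 CPM, so that replicate 6 alone of the B16F10 libraries lay within the B16F0 range. Its log2 fold change of -0.38 ± 0.16 (SE) had an unadjusted p of 0.0324 and an adjusted p of 0.274 by edgeR, and it was below 0 in all 3 lanes (-0.39, -0.73 and -0.21). Over the 29 other settings the adjusted p ran from 0.0689 to 0.765.

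Adar (chromosome 3, 89715022 to 89753446, plus strand) ran from 44.8 through 88.6 to 119 CPM in B16F10, with its lowest value in replicate 3. In B16F0 it stood at 71.4, 53.9, 80.8, 87.1 and 96.2 CPM, all within the B16F10 range. Adar had a log2 fold change of 0.08 ± 0.19 (SE; adjusted p = 0.905 by edgeR), and the lanes gave -0.17, 0.52 and 0.00. Of its exon bases 1365 (16.8%) overlap the gene Chrnb2 on the other strand, and the strand setting of the counting is not given in the sources used here.

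Among the adaptors, Ticam1 (chromosome 17, 56269319 to 56276786, minus strand) was the steadiest of the 10. It ran from 10.5 through 10.9 to 12.4 CPM in B16F10 and stood at 10.04, 8.35, 8.53, 10.4 and 11.5 CPM in B16F0. Its highest library was 1.49 times its lowest, and only 1.42% of tested genes had an SD of log2 CPM as small or smaller. Between the lines it had a log2 fold change of 0.17 ± 0.14 (SE; adjusted p = 0.622 by edgeR), with an interval from -0.13 to 0.47 and lane differences of 0.35, 0.17 and 0.03.

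Mavs (chromosome 2, 131234063 to 131248025, plus strand) ran from 16.3 through 22.1 to 31.0 CPM in B16F10. In B16F0 replicates 1 and 2 it reached 32.2 and 34.9 CPM, above every B16F10 library, and in replicates 3 to 5 it was at 21.7, 21.5 and 22.5 CPM, near the B16F10 median. This came to a log2 fold change of -0.27 ± 0.15 (SE; adjusted p = 0.456 by edgeR), and the lanes gave -0.06, -0.52 and -0.29.

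The kinase and the transcription factor on which both routes converge had opposite signs. Tbk1 (chromosome 10, 121546455 to 121586787, minus strand) had a lowest value of 43.8, a median of 48.9 and a highest value of 71.0 CPM in B16F10. Its B16F0 values were 79.4, 81.8, 71.5, 67.9 and 53.7 CPM. B16F10 replicate 3 alone lay above 2 of the B16F0 libraries, while B16F0 replicate 5 came down among the B16F10 libraries. For Tbk1 the log2 fold change was -0.44 ± 0.13 (SE; unadjusted p = 0.00495 and adjusted p = 0.103 by edgeR), with an interval from -0.72 to -0.16 and lane differences of -0.31, -0.73 and -0.39. With DESeq2 it was -0.44 with an adjusted p of 0.0316, and without B16F10 replicate 3 it was -0.51 with an edgeR adjusted p of 0.0493. Over all 29 other settings the fold change of Tbk1 ran from -0.51 to -0.24 and the adjusted p from 0.0316 to 0.524.

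Irf3 (chromosome 7, 44997648 to 45002848, plus strand) ran from 10.8 through 19.6 to 22.1 CPM in B16F10. In B16F0 it stood at 12.2, 13.1, 13.4, 11.5 and 10.7 CPM, a narrow range that 5 of the 7 B16F10 libraries exceeded, while replicates 6 and 7 lay within it. Irf3 had a log2 fold change of 0.52 ± 0.18 (SE; unadjusted p = 0.0132 and adjusted p = 0.175 by edgeR), with lane differences of 0.50, 0.76 and 0.34. Over the 29 other settings its adjusted p ran from 0.103 to 0.545. Of its exon bases 88 (2.56%) overlap Bcl2l12 on the other strand.

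Of the 10 genes 6 kept 1 direction in all 3 lanes: Ticam1 and Irf3 above 0, and Ifih1, Mavs, Eif2ak2 and Tbk1 below 0. The share of all tested genes that did so was not counted, so this is a description only. In lane 2 each difference rests on B16F0 replicate 1 alone. In the authors' deposited table, which holds 14108 genes, the log2 fold changes of Tlr3, Eif2ak2, Irf3 and Tbk1 are -0.29, -0.39, 0.51 and -0.46, with false discovery rates of 0.588, 0.244, 0.229 and 0.142.

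Levels of different genes can be set side by side only per length, and for this the CPM was divided by the kilobases of merged exons. On this scale Eif2ak2 was highest at 17.6 ± 3.76 CPM per kb (SD, n = 12 libraries), followed by Tbk1 (15.2), Adar (10.2), Mavs (7.11), Tlr3 (5.25), Ddx58 (4.67), Irf3 (4.47), Ticam1 (3.52), Ifih1 (2.63) and Dhx58 (1.75 ± 0.71). By this measure the kinases and the editing enzyme had the highest levels, and the helicases Ifih1 and Dhx58 the lowest. The low place of Ifih1 rests on its merged length of 8165 bases. Before division its mean of 21.5 CPM exceeded those of Irf3 (15.4) and Ticam1 (10.5). Merged exons cover all annotated transcripts, and which of these the libraries held was not tested. The order of neighbours was not equally firm. Dhx58 was below Ifih1 in 12 of 12 libraries, and Tlr3 was below Mavs in 10 of 12. Tlr3 was above Ddx58 in 8 of 12, Ddx58 above Irf3 in 6 of 12 and Irf3 above Ticam1 in 8 of 12, so the order of those 4 is not settled by these libraries. Tbk1 over Adar and Adar over Mavs held in 9 of 12.

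None of the 10 genes followed the endothelial content of the precipitates. A gene was said to follow a score where its slope, the log2 change per unit of the score with lane and tumour line in the fit, was above 0.5 with an edgeR adjusted p under 0.05, and 3.75% of all tested genes followed the endothelial score. At an unadjusted p under 0.05 none of the 10 had a slope, against 19.4% of all tested genes, and by limma-voom none followed either. The median slope of the 10 was 0.09, with 8 above 0, against 0.00 and 49.6% above 0 over all tested genes, while the 20 markers that make up the score had a median of 1.06.

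For Tlr3 the slope on the endothelial score was 0.08 ± 0.15 (SE, edgeR adjusted p = 0.79), with a 95% interval from -0.24 to 0.40. That interval leaves out 0.5 in the reported fit, but over 24 other settings the slope ran from -0.035 to 1.24. With single libraries left out the slope ran from 0.013 to 0.26. The level of Tlr3 in the 3 libraries of highest score was 42.6 (B16F0 replicate 3), 31.0 (B16F10 replicate 4) and 16.9 CPM (B16F10 replicate 5), which spans nearly the whole range of the 12 libraries. In B16F10 replicate 5, however, Rn45s took 31.4% of the counts. The only library with less Tlr3, B16F0 replicate 5 (16.5 CPM), is the other one rich in Rn45s (8.91%). Without those 2 libraries 1013 of all tested genes and still none of the 10 followed the endothelial score. Cdh5, whose promoter drives the Cre, was at 78.6 to 764 CPM over the 12 libraries. The steepest slope was that of Ddx58 at 0.36 ± 0.17 (SE, edgeR adjusted p = 0.27). Without B16F10 replicate 6 it was 0.46 with an adjusted p of 0.0092, and over the 24 other settings the adjusted p ran from 0.0092 to 1. The slopes of the other 8 genes lay between -0.14 (Mavs) and 0.19 (Adar). Without the 3 libraries of highest score no tested gene followed it, so the remaining 9 libraries cannot place the 10 genes on it.

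Whether the slope on the endothelial score differed between the tumour lines was tested by their product. No member passed (edgeR, 0 at an unadjusted p under 0.05), and neither did any of the 13534 tested genes (0%, with 1.26% at an unadjusted p under 0.05). The difference of slopes, B16F10 minus B16F0, was -0.29 ± 0.23 (SE) for Tlr3 and -0.48 ± 0.27 (SE) for Ifih1.

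**Figure D2:**
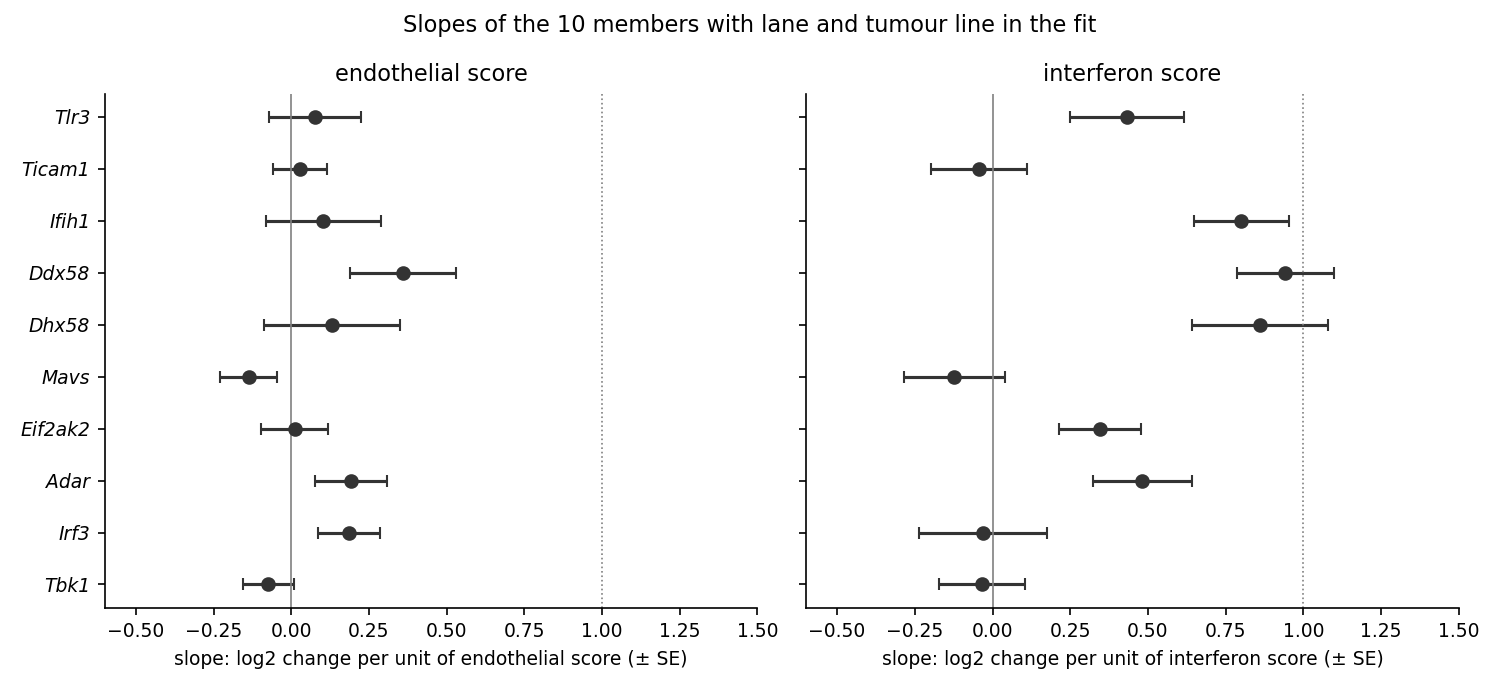
Slopes of the 10 genes on the endothelial score (left) and on the interferon score (right), in log2 change per unit of the score with lane and tumour line in the fit; points are estimates and bars are SE. The endothelial slopes lie between -0.14 and 0.36, while on the interferon score Ddx58, Dhx58 and Ifih1 lie at 0.80 to 0.94.

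On other interferon-stimulated genes the helicase sensors had the steepest slopes of the 10, short of the threshold as reported. The interferon score is the mean log2 CPM of 25 interferon-stimulated genes that include none of the 10, and its means of 3.27 ± 0.60 for B16F10 (SD, n = 7) and 3.297 ± 0.39 for B16F0 (SD, n = 5) differed by less than the SD of either group (exact two-sided permutation p = 0.942). None of the 10 passed both bounds for following it with edgeR, and 1, Ddx58, did with limma-voom, where 25 of all tested genes did. Of all tested genes 0.111%, or 15, followed, namely Iigp1, Gbp7, Cxcl9, Igtp, Gbp2, Gbp3, Irgm2, Gbp4, Ifi47, Irgm1, Nlrc5, Gbp6, Tap1, Ifit3 and Gm4951, most of them guanylate-binding proteins and immunity-related GTPases. This count rests on B16F10 replicate 6, without which 466 followed, and ran from 6 to 21 without any other single library. At an unadjusted p under 0.05 there were 6 of the 10, all with slopes above 0, against 1.03% of all tested genes. Neither share was counted without B16F10 replicate 6. The median slope of the 10 was 0.39, against 0.00 over all tested genes.

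Ddx58 had a slope of 0.94 ± 0.16 on the interferon score (SE, edgeR adjusted p = 0.0522), just outside the threshold and higher than that of 98.4% of tested genes. It passed in 10 of 24 other settings, and the adjusted p over them ran from 0.0165 to 0.561. Its 3 highest libraries, B16F0 replicate 3 (55.6 CPM), B16F10 replicate 4 (51.9 CPM) and B16F10 replicate 6 (48.2 CPM), were also those of highest interferon score (3.90, 3.62 and 4.28). With both scores in the fit its interferon slope was 0.83 (edgeR adjusted p = 0.0411), and it was then the only one of the 10 to follow, beside 0.148% of all tested genes. Dhx58 had a slope of 0.86 ± 0.22 (SE, edgeR adjusted p = 0.559) and Ifih1 of 0.80 ± 0.15 (SE, edgeR adjusted p = 0.106), and over 24 other settings the adjusted p of Ifih1 stayed between 0.0934 and 0.643.

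Tlr3 had a slope of 0.43 ± 0.18 on the interferon score (SE, edgeR unadjusted p = 0.0372, adjusted p = 1.00), about that of Adar (0.48) and Eif2ak2 (0.35). With single libraries left out the slope ran from 0.059 to 0.53 for Tlr3, 0.10 to 0.42 for Eif2ak2 and 0.38 to 0.86 for Adar. Without B16F10 replicate 6, the library of highest interferon score, the slope of Adar was 0.86 (edgeR adjusted p = 0.043), but 466 of all tested genes followed in that fit, against 15 with all libraries. Over 24 other settings its adjusted p ran from 0.043 to 1. The 4 genes further along the pathway had slopes near 0, namely -0.04 for Ticam1, -0.12 for Mavs, -0.03 for Irf3 and -0.03 for Tbk1.

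**Figure D3:**
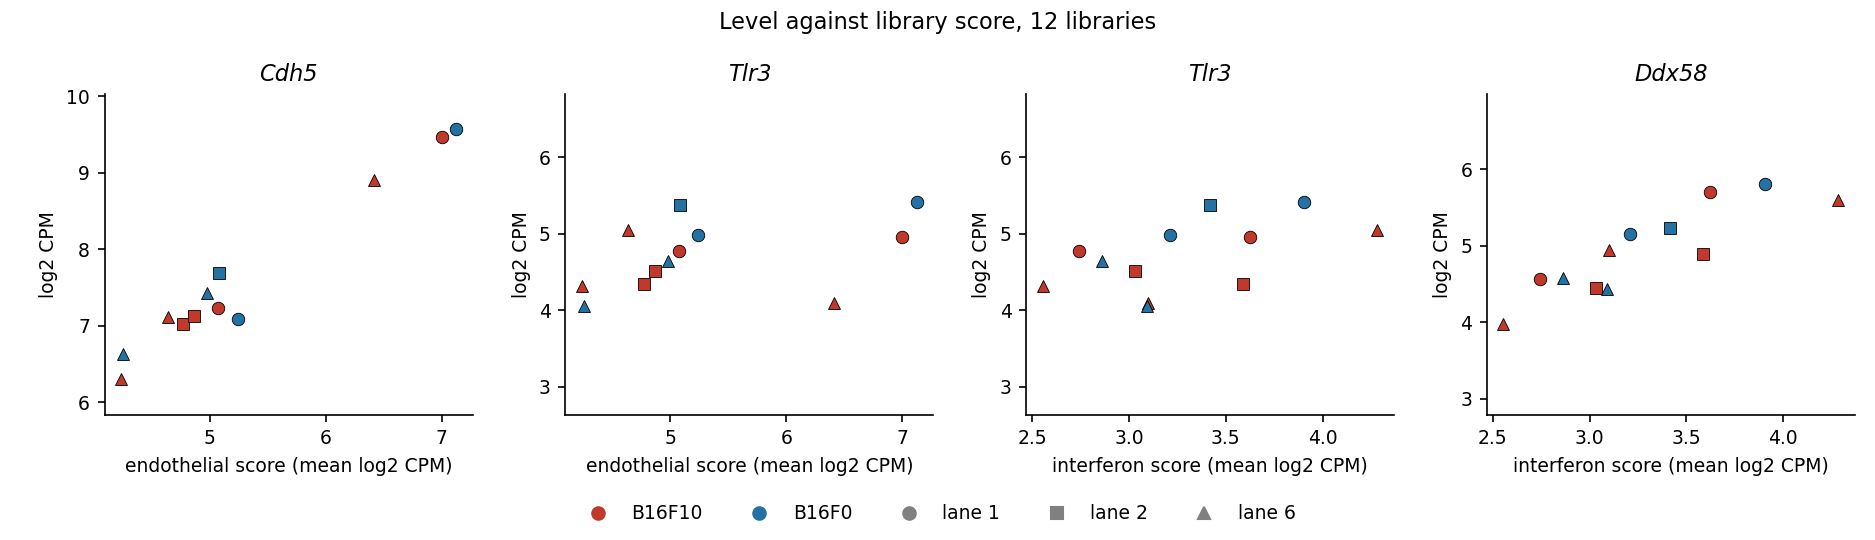
Log2 CPM of Cdh5 and Tlr3 against the endothelial score, and of Tlr3 and Ddx58 against the interferon score, with a point for each of 12 libraries, colour for the tumour line and marker shape for the lane; all vertical axes span the same number of log2 units. Cdh5 is highest in the 3 libraries of highest endothelial score and Tlr3 is scattered over that score, while Ddx58 is lowest in B16F10 replicate 7 (15.6 CPM), where the interferon score is lowest too.

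The content of other cells was compared in the same libraries. The melanocytic score averaged 8.04 ± 0.25 for B16F10 (SD, n = 7) and 8.41 ± 0.23 for B16F0 (SD, n = 5), with an exact two-sided permutation p of 0.0328 (0.0985 adjusted over 6 scores; within lanes 0.0611 before and 0.122 after adjustment). On this score Adar had a slope of -1.09 ± 0.30 (SE, edgeR adjusted p = 0.0193), as 16.2% of tested genes had a negative slope past the test, and none of the 10 had a positive one above 0.5 past the test, against 14.6% of tested genes. That share rests on single libraries, since the 1971 genes behind it were 467 without B16F10 replicate 3 and 905 without B16F0 replicate 3. The slope of Adar did not pass without B16F10 replicate 3 (-0.97, adjusted p = 0.154), without B16F0 replicate 3 (-0.92, adjusted p = 0.0935), without lane 2 (-0.99, adjusted p = 0.0535) or without the 3 libraries of highest endothelial score (-1.66, adjusted p = 0.0861). Mavs had a slope of 0.72 (edgeR adjusted p = 0.0607), Tbk1 of 0.57 (edgeR adjusted p = 0.0742) and Eif2ak2 of 0.09 (edgeR adjusted p = 0.87), while the other 6 lay between -0.88 (Ddx58) and 0.21 (Tlr3). The part of tumour cell RNA in the values of these genes was not tested.

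Macrophages also carry these sensors. The summed level of 19 macrophage and myeloid markers was 40.6 to 323 CPM in B16F10 and 77.5 to 339 CPM in B16F0, and the macrophage score averaged 2.41 ± 0.86 for B16F10 (SD, n = 7) and 2.40 ± 0.87 for B16F0 (SD, n = 5; exact two-sided permutation p = 0.975). None of the 10 followed it, beside 0.0222% of tested genes, or 3. Without B16F10 replicate 7, the library of lowest macrophage score, 1308 of all tested genes followed it and still none of the 10. With all libraries the slope of Tlr3 on it was 0.10 ± 0.21 (SE, edgeR adjusted p = 0.862). Of the lymphocyte markers 2 of 15 could be tested, and their score averaged 0.59 ± 0.52 for B16F10 (SD, n = 7) and -0.40 ± 0.68 for B16F0 (SD, n = 5), with an exact two-sided permutation p of 0.0227 (0.0985 adjusted over 6 scores). Within lanes the permutation p was 0.0389 before and 0.122 after that adjustment. The 15 pericyte and fibroblast markers summed to 244 to 2386 CPM in B16F10 and 233 to 1184 CPM in B16F0, and their score averaged 4.13 ± 1.20 and 3.32 ± 0.65 (exact two-sided permutation p = 0.212, and within lanes 0.0611 before and 0.122 after adjustment). The part of these cells in the values of the 10 genes was not tested.

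Across the 12 libraries some of the genes varied alike. The correlations below are of log2 CPM over libraries that share lanes and a varying cell make-up, and they are given as a description. Correlations over all pairs of tested genes were not computed, so how usual such values are in these libraries is not known. Tlr3 varied with Eif2ak2 and Dhx58 (Pearson r = 0.75 for both) and with Ifih1 and Ddx58 (0.73 for both). Among the helicases r was 0.80 for Ifih1 and Dhx58, 0.76 for Ddx58 and Dhx58 and 0.74 for Ifih1 and Ddx58. The adaptor Mavs varied with the kinase Tbk1 (0.82), and Ticam1 ran against Tbk1 (-0.76) and against Tlr3 (-0.73), its own receptor.

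**Figure D4:**
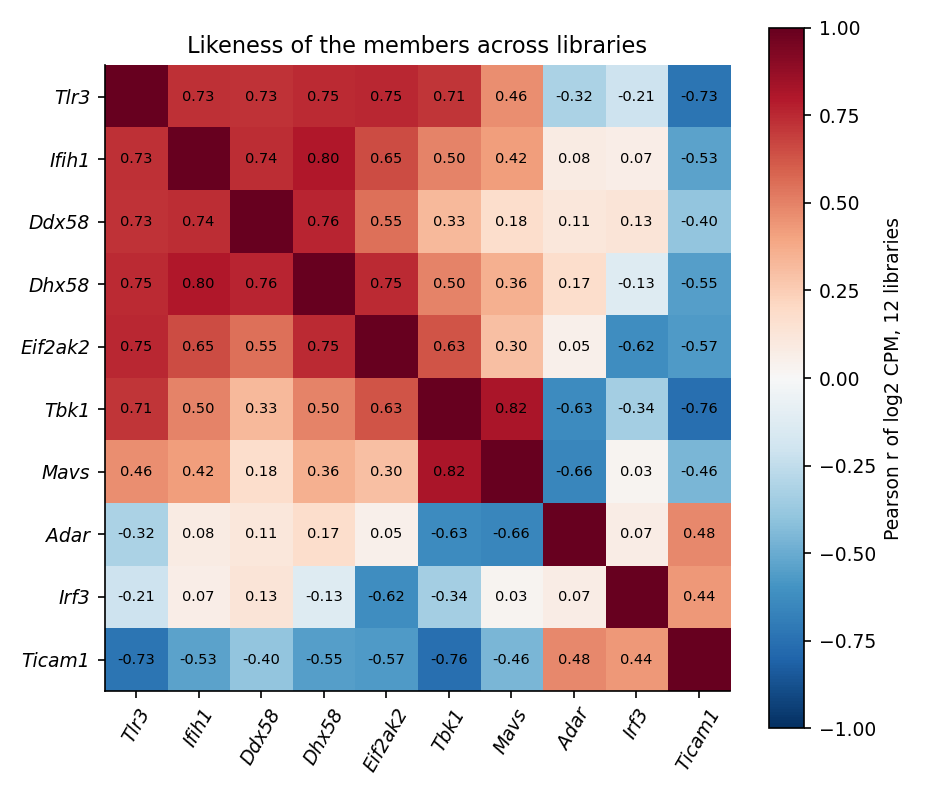
Pearson correlation of log2 CPM over 12 libraries for each pair of the 10 genes, printed in each cell and coloured from blue (-1) to red (1). Tlr3, Ifih1, Ddx58, Dhx58 and Eif2ak2 form a block of positive values from 0.55 to 0.80, and Ticam1 is negative against each of them.

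The genes most like each one were sought among the 10470 tested genes whose mean reached 5 CPM. For Ifih1 these began with Ifit1 (r = 0.93), Dtx3l (0.90) and Samd9l (0.90), for Ddx58 with Ifitm3 (0.94), Psmb8 (0.92) and Parp9 (0.92), and for Dhx58 with Ifit3 (0.93) and Parp12 (0.92), all genes known to be raised by interferon. Of these named genes Ifit1 and Ifit3 are on the list behind the interferon score, and the others are not. Pdcd10 (0.87), the last of the 5 nearest to Ifih1, is not on that list either. Adar was closest to Helz2 (0.95), Fbrs (0.93), Dhx37 (0.92) and Larp1 (0.91), none of them on that list. The interferon-induced Mx2 (0.91), which is on it, came last of its nearest 5. Tlr3 was closest to Litaf (0.92), Trove2 (0.91), 5730455P16Rik (0.91), Zdhhc9 (0.91) and Tmed5 (0.91), none of which is on the interferon list. Tbk1 was closest to Pdf (0.98), Mavs to Txnrd3 (0.98), Ticam1 to Gramd1a (0.94), Irf3 to Arhgap17 (0.88) and Eif2ak2 to Slc25a30 (0.88).

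In the wider pathway 1 gene passed the test, the DNA sensor Mb21d1, which is described last. Of 21 genes of TLR3 and TRIF signalling none passed the test in either direction (edgeR, 1 higher and 1 lower at an unadjusted p under 0.05). These were Traf3, an adaptor of Irf activation, at a log2 fold change of 0.46 (adjusted p = 0.135), and Wdfy1, which recruits Ticam1 to Tlr3, at -0.52 (adjusted p = 0.148). The median of the list was 0.02, that of all tested genes. Of 24 regulators of the helicase receptors none passed (3 lower at an unadjusted p), with Trim25, the ubiquitin ligase that activates Ddx58, at -0.56 (edgeR adjusted p = 0.103) and Mex3c at -0.47 (0.226).

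Of 29 tested genes for other double-stranded RNA binding proteins none passed (edgeR, 1 higher and 1 lower at an unadjusted p). Dicer1, which cuts double-stranded RNA into small RNAs, was at 0.57 (adjusted p = 0.0859), and Stau1, a transport protein, at -0.49 (adjusted p = 0.0885). Of 15 genes of the PKR pathway and the integrated stress response none passed (2 higher at an unadjusted p), with Ppp1r15a, a phosphatase subunit that reverses the action of Eif2ak2, at 0.55 (edgeR adjusted p = 0.175) and Trib3 at 0.82 (0.193). Of 25 interferon-stimulated genes none passed (1 lower at an unadjusted p), with a list median of 0.02. The 2 of smallest p among them were Irf9, at -0.57 (edgeR adjusted p = 0.262), and Oas1a, which makes the messenger that activates an RNA-cutting enzyme, at -0.58 (edgeR adjusted p = 0.408).

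Of 16 tested interferon factors and receptors none passed (edgeR, 1 higher and 1 lower at an unadjusted p), with Nfkb1, a subunit of NF-kappaB, at 0.53 (adjusted p = 0.0885) and Irf9 again as the lower. The interferon genes themselves were too scarce to test. Ifnb1 had 16 counts in 5 of the 12 libraries, Ifng 13 in 5, Ifna4 7 in 5, Ifna2 6 in 2, Ifne 22 in 7, Ifnl2 3 in 3 and Ifnl3 2 in 1, so differences in their transcripts were not detectable at this depth.

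Of 16 tested genes for other Toll-like receptors and DNA sensing 1 was lower, Mb21d1 (chromosome 9, 78430526 to 78443237, minus strand), and none was higher (1.47% and 1.3% of all tested genes; 2 higher and 2 lower at an unadjusted p under 0.05). Mb21d1 encodes cGAS, which senses double-stranded DNA and, like Tlr3 and the helicases, leads to Tbk1 and Irf3. It ran from 12.0 through a median of 13.95 to 17.5 CPM in B16F10 and stood at 23.7, 26.9, 26.2, 29.4 and 31.7 CPM in B16F0, with no overlap. Its log2 fold change was -0.98 ± 0.14 (SE; adjusted p = 0.00192 by edgeR), with lane differences of -1.12, -0.60 and -1.06. It had no slope past the test on the endothelial score (-0.08, edgeR adjusted p = 0.645) or on the interferon score (0.10, adjusted p = 1.00). Its partner Tmem173 (STING) averaged 15.5 ± 3.05 CPM for B16F10 (SD, n = 7) and 15.04 ± 3.58 CPM for B16F0 (SD, n = 5), and its log2 fold change was 0.08 (adjusted p = 0.885 by edgeR). Tlr4, the receptor that shares Ticam1 with Tlr3, was at 0.35 (edgeR adjusted p = 0.273), and the scarce Tlr12, at 0 to 1.28 CPM in B16F10 and 0.468 to 5.55 CPM in B16F0, was at -2.17 (edgeR adjusted p = 0.181).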

How the data were processed

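Libraries of ribosome-bound mRNA were made with the ScriptSeq kit, per the labels' protocols. The authors deposited raw read counts for 12 libraries by gene symbol. Per the submitters' processing notes, the tools were R 3.3.2, edgeR, featureCounts 1.6.0, STAR 2.2.1 and cutadapt 1.16, with the build mm10. For the annotation and for the strand setting of the counting, nothing is given in the sources used here. Reads of overlapping or antisense genes may therefore count for either symbol. In the authors' deposited comparison (log2 fold changes and p-values) decimal commas were read as points. The normalized values, also deposited, were left aside because their decimal marks were lost.

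Groups and lanes came from the labels. Genes were filtered with filterByExpr (minimum count 10, 13534 kept), scaled by TMM and tested with edgeR 4.0.16 (quasi-likelihood, lane and group, Benjamini-Hochberg) in R 4.3.3. CPM use scaled totals of the tested genes. Log2 CPM have a prior count of 2. Standard errors are the coefficient divided by the square root of F, and intervals cover 95%. A score is the mean log2 CPM of a list. In slope tests the score joined lane and group. Scores were compared by exact permutation over 792 splits, or 180 within lanes. The slope test fits the score as if known without error.

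The 10 genes and the lists were chosen with earlier results of these data known. The rule for other named genes took from each pathway list the genes past the test and the 2 of smallest p besides, the 5 genes most like each of the 10 in pattern, and leading markers, of which Cdh5 is printed. Of the 5 most alike, only the nearest are given for some. Tmem173 and Slit2 were chosen after their values were seen. The edgeR tests between the lines and of the endothelial and interferon slopes were tried on simulated counts, and the other tests were not. Other settings were DESeq2 1.42.0, limma-voom (limma 3.58.1), RLE, no filter, no lane, the replicate number or library name prefix in place of the lane, either score as covariate, each library left out, lane 2, the 3 libraries of highest endothelial score or Rn45s left out, and a false discovery rate of 0.1. Added after seeing the data were the melanocytic and macrophage scores, leaving out the 2 libraries rich in Rn45s, and the motif AANNGAAA. Every pair of libraries within a group differed by more than sampling noise (chi-square). The chi-square over its degrees of freedom was lowest for B16F10 replicates 1 and 2 (8.23), against 28.6 to 620 for other pairs. These 2 libraries share lane 2 and a name prefix.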

Additional observations from a re-analysis of the deposited data

Results flagged for a closer look

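Of 32 groups of library values checked, 4 held a library far from the rest by Dixon's criterion, which flags about 1 group in 20 by chance. Eif2ak2 stood at 114 CPM in B16F10 replicate 6, the library of highest interferon score, with the other 6 at 65.8 to 80.3 CPM. Tbk1 stood at 71.0 CPM in B16F10 replicate 3, and the melanocytic score of the same library was 8.54, the highest of its group. The macrophage score of B16F10 replicate 7 was 0.65, the lowest of the 12.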

How the results depend on the processing

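No call of a difference between the lines was made for the 10 genes in any setting other than DESeq2 and without B16F10 replicate 3, each with 1 lower, Tbk1 (0 to 1 with single libraries left out). The direction was kept in all 29 other settings for 8 of the 10. Ddx58 reversed to 0.14 without lane 2, 0.10 with the name prefix, and ran from -0.22 to 0.13 with single libraries left out. Adar reversed to -0.041 without lane 2, -0.063 with the prefix and -0.31 with the melanocytic score, and ran from -0.059 to 0.20 with single libraries left out. The cause of these changes was not tested.

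Replicate numbers did not pair the libraries (correlations of same-numbered deviations from -0.29 to 0.32, only pair 5 correlating best with its own number). With the replicate number as a block, 0 of the 10 passed, and the pathway lists had 0 lower, Mb21d1 then having a log2 fold change of -1.02 (adjusted p = 0.0992), while over all genes 30 were higher and 28 lower. With this block the endothelial slope of Ticam1 was -0.065, the interferon slope of Irf3 0.21 and the melanocytic slope of Adar -1.42 (adjusted p = 0.18).

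Genes called in the pathway lists, 0 higher and 1 lower in the reported fit, were 3 and 4 with DESeq2, 2 and 2 at a false discovery rate of 0.1, 5 and 2 with the prefix, and 3 and 2 with the melanocytic score. There was 1 higher without lane 2 and with the endothelial score, 2 higher without the 3 endothelium-rich libraries, and 2 lower with the interferon score. With single libraries left out they ran from 0 to 1 higher and 1 to 2 lower. Mb21d1 passed in 28 of 29 settings.

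No setting gave a member that followed the endothelial score. Without a lane term the endothelial slopes of Ticam1, Adar and Tbk1 reversed to -0.035, -0.053 and 0.043. Without the 3 libraries of highest score those of Ticam1, Mavs and Tbk1 reversed to -0.17, 0.081 and 0.52. Without the filter those of Ticam1 and Eif2ak2 were -0.00063 and -0.017, and without Rn45s that of Eif2ak2 was -0.0012. With both scores in the fit those of Tlr3, Ifih1, Dhx58 and Eif2ak2 were -0.035, -0.093, -0.040 and -0.082. With single libraries left out Eif2ak2 ran from -0.047 to 0.15 and Ifih1 from -0.10 to 0.31.

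The count that followed the interferon score, 0 as reported, was 1 with limma-voom, RLE, no filter, both scores, a false discovery rate of 0.1, without Rn45s and without the 3 libraries richest in endothelial transcripts, and 0 to 2 with single libraries left out. In those settings 16 to 27 of all tested genes followed, and 466 in the fit without B16F10 replicate 6, which gave the 2. Without a lane term the slope of Irf3 was 0.055. Without the 3 endothelium-rich libraries those of Mavs and Tbk1 were 0.081 and 0.063, and with both scores that of Tbk1 was 0.0090. With single libraries left out Tbk1 ran from -0.33 to 0.077, Irf3 from -0.19 to 0.40, Ticam1 from -0.11 to 0.10 and Mavs from -0.43 to 0.0076.

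The difference of endothelial slopes between the lines was -0.072 for Tbk1 without a lane term. With single libraries left out it ran from -0.44 to 0.076 for Tbk1, -0.49 to 0.14 for Ddx58, -0.13 to 0.41 for Mavs and -0.28 to 0.35 for Adar. The count that followed the melanocytic score, 0 as reported, was 1 without a lane term, with limma-voom and without the 2 libraries rich in Rn45s, 2 at a false discovery rate of 0.1, and 0 to 1 with single libraries left out. With the replicate block no tested gene followed the melanocytic or the interferon score and 718 followed the macrophage score, which 329 did without a lane term. Over all genes 407 were higher and 445 lower with DESeq2, against 176 and 199 as reported, and 96 and 81 without lane 2. Depth limits Dhx58 most, with 33 to 175 counts per library.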
